A study of Mus musculus with 6 samples.

Results

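Expression of 9 genes of blood coagulation, plasminogen activation and the serpin family was described by cell type and by genotype in the mouse aortic root. The genes were Plau, Plat and Plaur of the plasminogen activator system, the serpins Serpine2, Serpinf1 and Serpina3n, and F3, Tfpi and Thbd, which start and restrain clotting. They were taken from a list that was chosen with earlier results of these data known, and are 9 of the 55402 features of the count matrices. Each of the 9 identifiers was found, with the same version, in the GENCODE M21 annotation of mm10.

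The study profiled single cells of the aortic root and proximal ascending aorta from male mice aged 24 weeks. Its first group was heterozygous for the C1041G allele of Fbn1, which encodes the matrix protein fibrillin-1, and carried a floxed Klf4 allele, from which Klf4, a zinc-finger transcription factor, was to be deleted in smooth muscle cells (SMCs). Its second group carried the Fbn1 allele and a wild type Klf4 allele, and served as the Marfan syndrome model. The remaining group was littermate controls with a wild type Klf4 allele. Aortas of 4 animals per group were pooled, digested with Liberase and elastase, and sorted into tdTomato-positive cells, the traced SMC lineage, and tdTomato-negative cells. The promoter that drives the lineage reporter and the deletion is not given in the sources used here. There was 1 library per genotype and sort fraction, 6 in all, so no value has a replicate error, no test was run, and higher and lower describe these libraries.

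Tissue factor, encoded by F3, is the cell-surface receptor that starts clotting when it meets factor VII, and it is known to be held by cells of the vessel wall outside the endothelium. Its inhibitor, encoded by Tfpi, and thrombomodulin, encoded by Thbd, restrain the cascade at the endothelial surface, where thrombin bound to thrombomodulin activates protein C. Urokinase (Plau), bound to its receptor (Plaur), and tissue plasminogen activator (Plat) turn plasminogen into plasmin, a protease that dissolves fibrin and degrades matrix. Serpins are protease inhibitors that trap their target. Serpine2, or protease nexin-1, inhibits thrombin and the plasminogen activators, Serpina3n inhibits serine proteases of leukocytes, and Serpinf1, or pigment epithelium-derived factor, is a secreted serpin without inhibitory activity that is known to limit the growth of vessels.

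The libraries held 5167 to 22905 barcodes and 47750360 to 95250397 unique molecular identifiers (UMIs). After filters, 39728 cells were kept in 23 clusters, of which 21 were named from marker genes. The Marfan lineage-positive library stood apart in depth, with a median of 2153 UMIs per kept cell, against 12878 in the Klf4-floxed-labelled and 11379.5 in the control lineage-positive library. Any pair of libraries shared 9 to 60 barcodes. Klf4 itself was higher in the SMC class of the library labelled Klf4-floxed, at 113 CPM (CPM is a gene's UMI count scaled to a fixed total of UMIs for the class), against 39.2 CPM in Marfan and 23.2 CPM in control. Those are counts of the 3' end of the transcript, which can lie outside the deleted part, so they do not check the label. The sort showed in Myh11, a contractile SMC gene, with 2212 to 2747 CPM in the lineage-positive libraries and 53.5 to 80.4 CPM in the lineage-negative ones.

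Levels are given as CPM of all UMIs of a class of cells in a library. Each has an exact Poisson 95% interval, and each ratio of CPM an exact conditional binomial 95% interval, both of which cover counting error only. A gene was measured in a comparison when it had at least 5 CPM in either library, and was called higher or lower when the ratio was at least 1.5-fold. The comparisons of Klf4-floxed Marfan with Marfan and of Marfan with control share the Marfan libraries, and both comparisons with control share the control libraries. Levels are not compared between genes.

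The coagulation genes were divided between the stroma and the endothelium. F3 (chr3:121723537-121735048) was a fibroblast transcript, with 199 CPM (95% interval 195 to 203) in the fibroblast-like class of the library labelled Klf4-floxed, 153 CPM (149 to 158) in Marfan and 229 CPM (223 to 235) in control. That class held 94.9% of the lineage-negative F3 UMIs in the library labelled Klf4-floxed, 89.9% in Marfan and 94.0% in control. The vascular endothelial-like class had 4.13, 2.82 and 6.77 CPM of F3 in the same order, from 5 to 7 UMIs per library. Within fibroblasts, F3 belonged mainly to the cluster led by Hsd11b1 and Gdf10, at 486 CPM in the library labelled Klf4-floxed, 334 CPM in Marfan and 468 CPM in control. The cluster led by Coch had 10.5, 11.3 and 17.7 CPM in that order, and the Pi16 cluster lay between them. F3 was kept out of the variable genes that formed the clusters.

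Thbd (chr2:148404466-148408188) was highest in lymphatic endothelial-like cells, with 672 CPM (623 to 725) in the library labelled Klf4-floxed, 693 CPM (649 to 739) in Marfan and 677 CPM (597 to 765) in control. The 3 intervals overlap. Vascular endothelial-like cells followed, and fibroblast-like cells had 58.7 CPM in the library labelled Klf4-floxed, 88.5 CPM in Marfan and 87.1 CPM in control. Since fibroblasts are many, they held 55.9% of the lineage-negative Thbd UMIs in the library labelled Klf4-floxed, 45.3% in Marfan and 71.0% in control. Tfpi (chr2:84432855-84476775) had the same leading class, with 92.2 CPM (74.4 to 113) in lymphatic endothelial-like cells of the library labelled Klf4-floxed, 91.7 CPM (76.2 to 109) in Marfan and 116 CPM (84.2 to 156) in control. These intervals also overlap. In SMCs Tfpi lay between 8.16 and 9.15 CPM in all 3 libraries.

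Plau (chr14:20836660-20843385) was a macrophage transcript. Macrophage-like cells had 89.1 CPM (82.9 to 95.7) in the library labelled Klf4-floxed, 60.6 CPM (56.1 to 65.3) in Marfan and 71.0 CPM (63.5 to 79.1) in control. Macrophages and monocytes together held 78.6% of the lineage-negative Plau UMIs with 15.4% of the cells in the library labelled Klf4-floxed, 74.1% with 20.2% in Marfan and 89.1% with 10.1% in control. A Plau UMI was found in 38.7%, 32.0% and 38.2% of macrophage-like cells in that order, against 0.506%, 0.845% and 0.122% of the cells of the valve interstitial-like or chondrocyte-like class, which should lack it. Median depths were 8806 to 10583.5 UMIs in the macrophages and 10420.5 to 11330 UMIs in the valve class. With every cell thinned to 2000 UMIs, the macrophage shares lay between 10.9% and 13.2% in the 3 libraries. Those of the valve class were 0%, 0.174% and 0.129%.

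Plaur (chr7:24462484-24475968), the receptor, had a wider distribution, with its highest class level in neutrophil-like cells of the Marfan library. Neutrophil-like cells, present in number only in the Marfan lineage-negative library (202 cells, against 2 in the library labelled Klf4-floxed and 7 in control), had 987 CPM (906 to 1074). Monocyte-like cells had 75.0 CPM (59.4 to 93.5) in the library labelled Klf4-floxed and 295 CPM (277 to 313) in Marfan, and control had too few of them (39 cells) to be summed. Macrophage-like cells had 35.1, 35.1 and 49.9 CPM in Klf4-floxed-labelled, Marfan and control libraries, and vascular endothelial-like cells 65.5, 67.2 and 84.6 CPM. Lymphatic endothelial-like cells had 80.3, 39.5 and 44.8 CPM in that order. In SMCs the receptor was less abundant but counted in 379 to 1009 UMIs per library.

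Plat (chr8:22757727-22782844) was spread over endothelium, valve cells and fibroblasts. Vascular endothelial-like cells had 247 CPM (224 to 272) in the library labelled Klf4-floxed, 154 CPM (136 to 173) in Marfan and 374 CPM (335 to 417) in control, with no overlap of the intervals. The valve class had 230, 219 and 225 CPM in that order, so in the Marfan library it exceeded the endothelium. Among fibroblast clusters Plat ran opposite to F3. The Coch cluster had 299, 296 and 283 CPM, and the Hsd11b1 cluster 38.3, 37.5 and 54.2 CPM.

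Among the serpins, Serpine2 (chr1:79794197-79861180) was high in SMCs, at 573 CPM (568 to 579) in the library labelled Klf4-floxed, 583 CPM (577 to 589) in Marfan and 484 CPM (478 to 490) in control. It was also found in fibroblasts (307, 269 and 199 CPM in that order), in valve cells (357, 399 and 276 CPM) and in lymphatic endothelium (249, 282 and 261 CPM). Within the valve class the chondrocyte-like cluster led by Chad and Comp had 813 CPM in the library labelled Klf4-floxed, 746 CPM in Marfan and 525 CPM in control. Each of these lay above the SMC class of the same genotype. Serpinf1 (chr11:75409769-75422701) was shared by fibroblasts and valve cells. Fibroblast-like cells had 882 CPM in the library labelled Klf4-floxed, 941 CPM in Marfan and 1182 CPM in control, against 19.7, 19.3 and 19.0 CPM in SMCs.

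Serpina3n (chr12:104406729-104414329) was highest in fibroblast-like cells, with 436 CPM (430 to 443) in the library labelled Klf4-floxed, 428 CPM (422 to 435) in Marfan and 227 CPM (221 to 232) in control. Both Marfan-background libraries lay above the control library. Its fibroblast clusters were ordered as those of Plat and opposite to F3, with 726, 688 and 307 CPM in the Coch cluster and 101, 214 and 98.0 CPM in the Hsd11b1 cluster. Serpina3n has near-identical copies in its gene cluster, and counts could be split among them.

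Free RNA can add to these levels, and it was not measured directly. The levels of fibroblast markers in other cells served as a gauge, called here the free RNA share. This gauge cannot tell free RNA from doublets, mixed clusters or low expression. In macrophage-like cells 5 fibroblast markers (Dcn, Lum, Col1a1, Col3a1 and Clec3b) stood at a median of 4.77% of their fibroblast level in the library labelled Klf4-floxed (range 3.75% to 6.83%), 2.73% in Marfan (1.44% to 2.92%) and 2.67% in control (1.79% to 3.71%). F3, Serpina3n and Plat in macrophages lay at or near these shares, with 3.98%, 1.39% and 3.10% for F3 and 4.69%, 1.99% and 1.80% for Serpina3n. Plat was at 5.06%, 3.91% and 3.73%. None of these is read as expression by macrophages, nor are ratios between such levels. Serpine2 lay above the marker range in Marfan (6.89%) and control (5.96%) and below it in the library labelled Klf4-floxed (2.93%), and Serpinf1 lay above it in all 3 (9.87%, 5.61% and 4.73%).

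**Figure D1:**
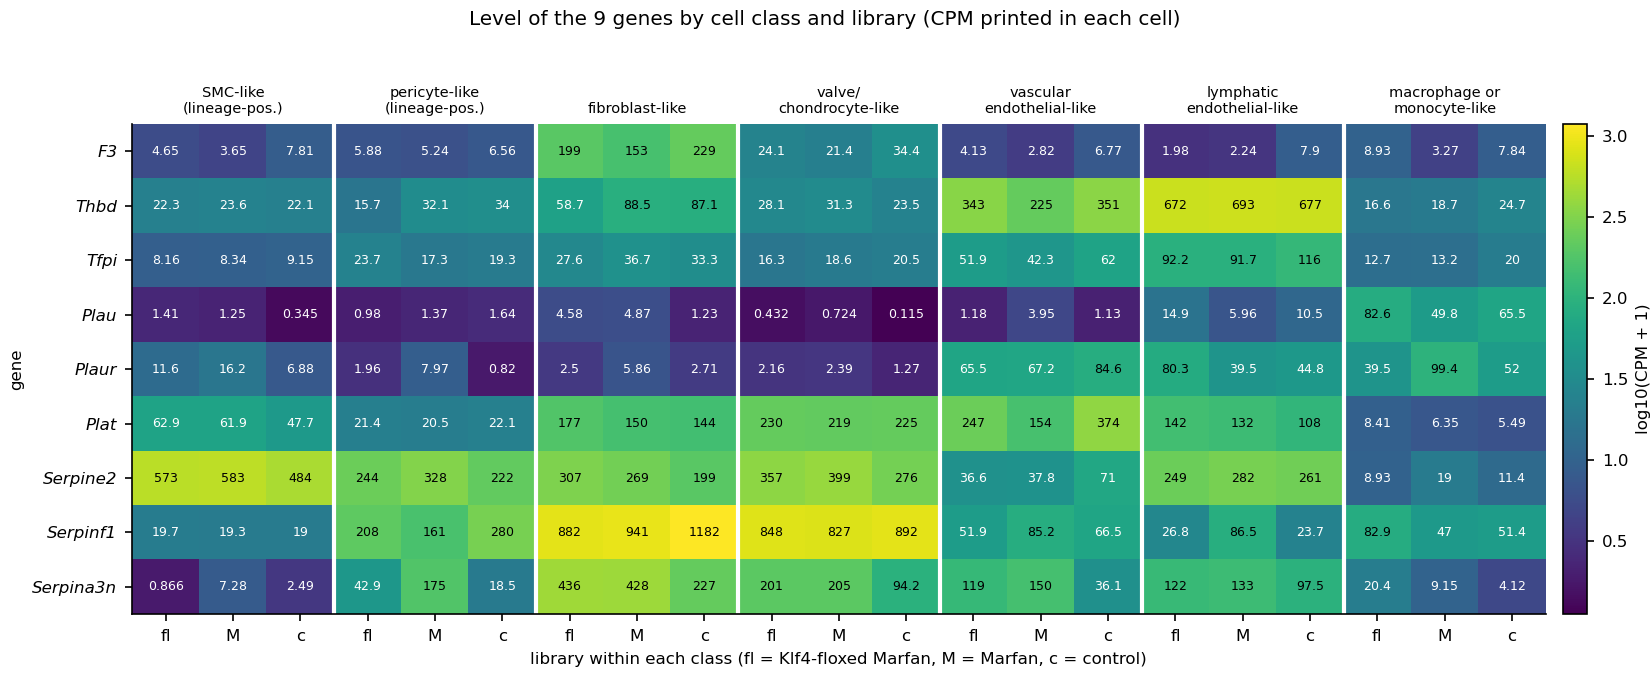
Heat map of the 9 genes (rows, grouped by role) in 7 classes of cells, with the Klf4-floxed Marfan, Marfan and control library of each class as columns from left to right. Colour is log10 of CPM plus 1 and the CPM is printed in each cell. Plau is highest in macrophages and monocytes, F3 and Serpina3n in fibroblasts, Thbd and Tfpi in lymphatic endothelium, and Serpine2 in SMCs.

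The promoters of F3, Plaur and Serpina3n are shown because these genes had the ratios between SMC libraries described next, and because Klf4 is a factor of the KLF family. RefSeq windows on GRCm38.p6 (mm10) held 250 bases before and 50 after each gene's start, at chr3:121723287-121723586 (+) for F3, chr7:24462233-24462532 (+) for Plaur and chr12:104406458-104406757 (+) for Serpina3n. Capitals mark the KLF core CACCC on either strand and the AP-1 motif TGANTCA.
F3: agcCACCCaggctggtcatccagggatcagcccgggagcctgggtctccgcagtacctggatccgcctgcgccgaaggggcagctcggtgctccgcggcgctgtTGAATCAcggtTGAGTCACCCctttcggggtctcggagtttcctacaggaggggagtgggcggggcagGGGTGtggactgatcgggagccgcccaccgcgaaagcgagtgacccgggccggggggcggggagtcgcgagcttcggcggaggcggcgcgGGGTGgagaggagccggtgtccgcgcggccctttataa
Plaur: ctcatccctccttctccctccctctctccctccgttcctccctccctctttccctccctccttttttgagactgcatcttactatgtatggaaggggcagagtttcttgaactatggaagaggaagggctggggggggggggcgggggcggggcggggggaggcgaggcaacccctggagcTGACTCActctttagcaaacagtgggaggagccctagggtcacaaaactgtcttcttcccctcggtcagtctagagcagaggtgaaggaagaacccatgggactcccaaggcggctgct
Serpina3n: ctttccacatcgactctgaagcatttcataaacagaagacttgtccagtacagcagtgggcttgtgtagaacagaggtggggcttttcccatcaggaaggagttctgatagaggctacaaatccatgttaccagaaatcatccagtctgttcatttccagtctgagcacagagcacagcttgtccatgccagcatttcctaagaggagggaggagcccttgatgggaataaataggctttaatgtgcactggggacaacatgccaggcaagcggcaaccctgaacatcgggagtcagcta
The F3 window held 4 KLF cores, first bases 4, 121, 173 and 263 of the window, and 2 AP-1 motifs, at bases 105 to 111 and 116 to 122, of which the second overlaps a KLF core. In the Plaur window there was 1 AP-1 motif, at bases 182 to 188, and no KLF core, and in the Serpina3n window neither was found. The Sp1 box GGGCGG, also read on both strands, was found 3 times in F3 and 3 times in Plaur, and TATAAA 1 time in F3. Among 32851 promoters of the same length 57.5% held CACCC, 7.81% TGANTCA, 35.7% GGGCGG and 13.6% TATAAA on either strand. Of the 9 genes, 6 were found in the table, and Plau, Plat and Thbd were not. A match is a description of letters and not of a bound site.

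In SMCs, Plaur and Serpina3n were higher and F3 was lower in the Marfan library than in control. Plaur had 11.6 CPM (10.8 to 12.4) in the library labelled Klf4-floxed, 16.2 CPM (15.2 to 17.3) in Marfan and 6.88 CPM (6.20 to 7.61) in control. The 3 intervals do not overlap, and Marfan was highest. F3 had 4.65 CPM (4.17 to 5.18), 3.65 CPM (3.19 to 4.16) and 7.81 CPM (7.09 to 8.58) in the same order, with control highest. Serpina3n had 0.866 CPM (0.664 to 1.11) from 62 UMIs in the library labelled Klf4-floxed, 7.28 CPM (6.63 to 7.98) from 453 UMIs in Marfan and 2.49 CPM (2.09 to 2.94) from 137 UMIs in control. Its intervals were also separate, with Marfan highest and the library labelled Klf4-floxed lowest.

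Between the Marfan and control SMC libraries, 8 of the 9 genes were measured, 2 were higher and 1 was lower, while 3.53% of all measured genes were higher and 2.68% lower. Log2 ratios were 1.24 for Plaur (95% interval 1.07 to 1.41), 1.55 for Serpina3n (1.27 to 1.84) and -1.10 for F3 (-1.34 to -0.86). The median over the measured members was 0.18, and over all measured genes -0.08. The Plat level of 61.9 CPM in Marfan, against 47.7 CPM in control, gave a ratio of 0.38, and Serpine2 had 0.27. Serpinf1, Tfpi and Thbd had log2 ratios of 0.02, -0.13 and 0.10. The ratios of F3 and Serpina3n stayed past 1.5-fold in each of 16 alternatives that give a ratio, and that of Plaur in 15. With the sort fractions clustered apart, the Plaur ratio was 0.05, and with the cluster composition held to that of control, the Serpina3n ratio was 0.61. At a minimum of 20 CPM none of the 3 genes was measured.

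For the SMC libraries labelled Klf4-floxed against Marfan, 7 genes were measured and Serpina3n alone was called, lower by a log2 ratio of -3.07 (-3.48 to -2.69), while 0.325% of all measured genes were higher and 0.542% lower. That ratio lay between -4.17 and -1.59 in 16 alternatives, and at a minimum of 20 CPM the gene was not measured. The Plaur ratio was -0.48 (-0.62 to -0.35), inside 1.5-fold. For the SMC libraries labelled Klf4-floxed against control, 7 were measured, Plaur was higher by 0.75 (0.58 to 0.93) and F3 lower by -0.75 (-0.96 to -0.54), while 3.45% of all measured genes were higher and 2.4% lower. Clustering the fractions apart turned this Plaur ratio to -0.38.

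Serpina3n and F3 in SMCs stood far below their fibroblast level, and fibroblast marker sums in the SMC class were 2156 CPM in the library labelled Klf4-floxed, 2201 CPM in Marfan and 1827 CPM in control, with 10 of 10 markers seen. Neutrophil marker sums were 1.17, 10.8 and 0.581 CPM in that order, with 4, 6 and 4 of 7 markers seen. The Marfan library was also the shallowest. The part of these in the SMC ratios was not tested. Without the shallow cluster of 5551 Marfan cells, the log2 ratio of Plaur for Marfan against control was 1.24.

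**Figure D2:**
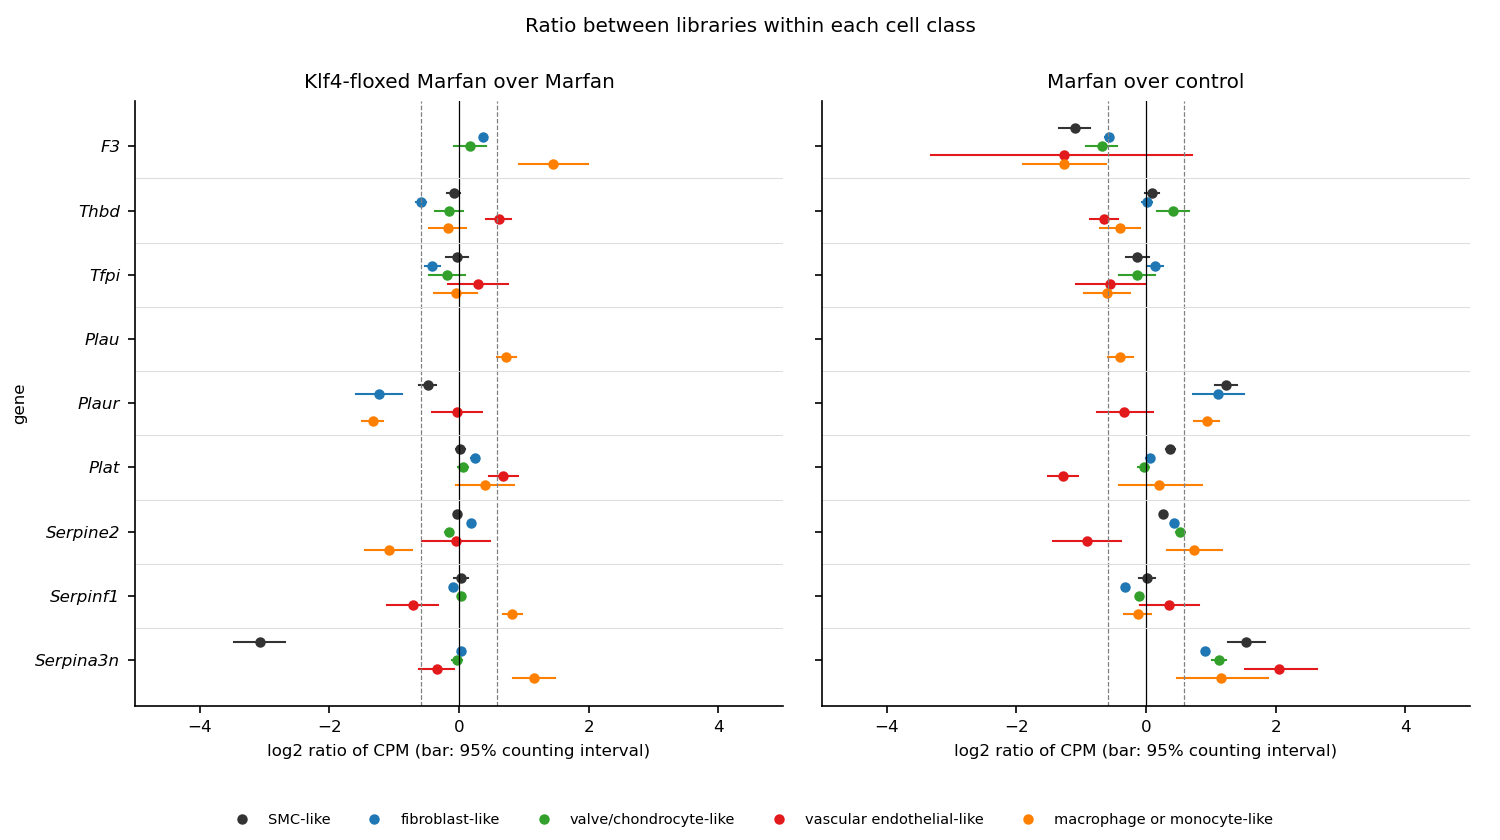
Log2 ratios of CPM for the 9 genes in 5 classes, Klf4-floxed Marfan over Marfan on the left and Marfan over control on the right. Points are ratios, bars 95% counting intervals, and dashed lines 1.5-fold either way. Serpina3n lies to the right of 1.5-fold in every class for Marfan over control, and Serpina3n of SMCs is at -3.07 for Klf4-floxed Marfan over Marfan.

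Within the SMC-like and modulated SMC-like clusters, Plaur for Marfan against control was above 0 in 4 of 4 clusters in which it was measured and past 1.5-fold in 3, and F3 was past 1.5-fold lower in 3 of 3. Serpina3n was measured in 2 of these clusters and past 1.5-fold in 0 of them, with log2 ratios of 0.10 and 0.53, so the ratio of the whole SMC class was not seen within either. Its Marfan level in the modulated SMC-like cluster led by Timp4 was 21.6 CPM, and control had too few cells there (36) to be compared. Plaur in the modulated SMC-like cluster led by Ankrd1 had 21.2 CPM in the library labelled Klf4-floxed, 30.3 CPM in Marfan and 20.5 CPM in control. The contractile cluster led by Tnnt2 and Des had the lowest levels, 2.07, 4.48 and 2.50 CPM. For Klf4-floxed-labelled against Marfan libraries, Serpina3n was lower in 3 of 3 SMC-like or modulated SMC-like clusters (log2 ratios -4.39 to -1.26), and Plaur was below 0 in 5 of 5 and past 1.5-fold in 2. The -4.39 was that of the Timp4 cluster, where Serpina3n had 1.03 CPM in the library labelled Klf4-floxed.

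The term modulated stands for SMCs with matrix genes and less of the contractile programme. Here the name rests on markers such as Igfbp2, Fn1 and Tnfrsf11b, and contractile genes were not compared between clusters. Igfbp2 does not set these clusters apart by itself, since it was also a leading gene of the shallow SMC-like cluster. That shallow cluster was left out of the other SMC clusters used for comparison here. The modulated SMC-like clusters differed from the other SMC clusters of their own library in several members. In the Ankrd1 cluster Plaur was higher by log2 1.15 in the library labelled Klf4-floxed, 1.54 in Marfan and 1.74 in control. Serpine2 had log2 ratios of 0.48, 0.53 and 0.91 in that order, past 1.5-fold in control, and Thbd 0.55, 0.63 and 0.97, past 1.5-fold in Marfan and control. F3 was past 1.5-fold in control (0.69). Serpinf1 went the other way, with -1.05, -1.50 and -0.31. Of all measured genes, 2.20%, 2.49% and 6.15% were at least 1.5-fold higher in that cluster and 2.05%, 2.39% and 4.66% lower. The Timp4 cluster, with 873 cells labelled Klf4-floxed and 726 Marfan cells and too few in control, had more Thbd (1.30 and 1.45 in that order), F3 (0.99 and 0.94) and Tfpi (0.89 and 0.80) and less Plat (-1.51 and -1.63) than the other SMCs. Plaur was lower in the library labelled Klf4-floxed (-0.87) and had 0.33 in Marfan, and Serpinf1 had -0.11 and was lower in Marfan (-0.78). Serpina3n was higher in Marfan by 2.76 and was not measured in the library labelled Klf4-floxed. Of all measured genes 12.8% and 13.1% were higher in that cluster, and 12.8% and 11.7% lower. Control had 198 cells in the Ankrd1 cluster, against 1185 in the library labelled Klf4-floxed and 1192 in Marfan, so the SMC class sums weight modulated cells more in both Marfan-background libraries.

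**Figure D3:**
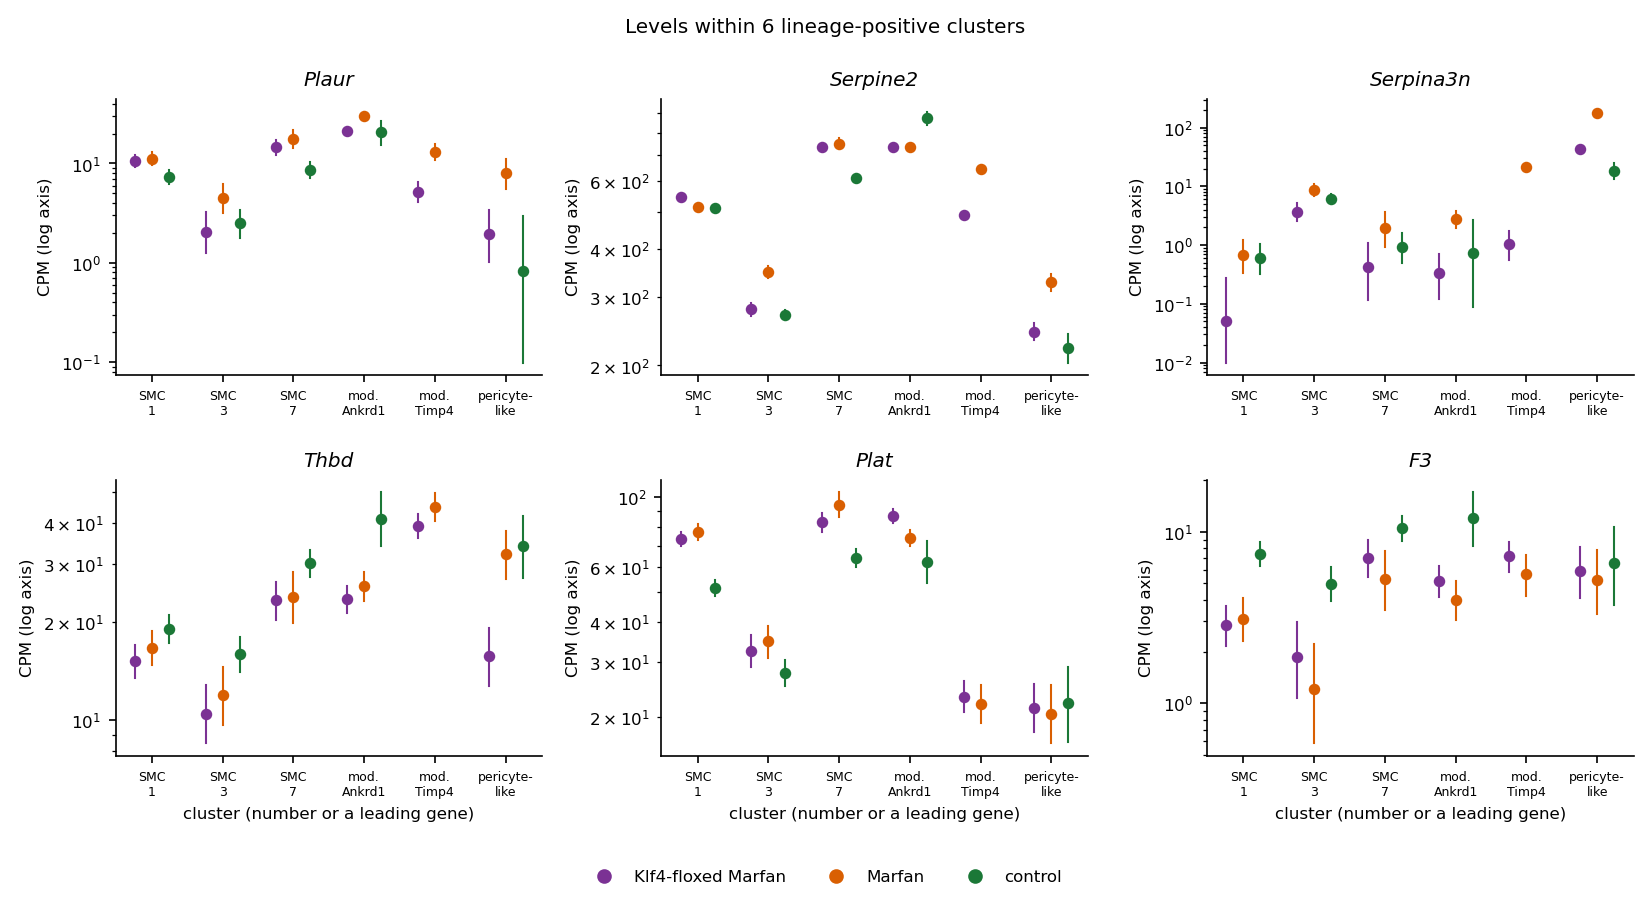
CPM on a log axis of Plaur, Serpine2, Serpina3n, Thbd, Plat and F3 in 6 lineage-positive clusters, with Klf4-floxed Marfan, Marfan and control from left to right and bars for 95% counting intervals. Plaur is highest in the Ankrd1 cluster, at 21.2, 30.3 and 20.5 CPM, and Serpina3n reaches its highest level in the pericyte-like cluster of the Marfan library.

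Fibroblast-like cells had more Serpina3n and more Plaur in the Marfan library than in control. Here 8 genes were measured, 2 were higher and 0 lower, while 2.09% of all measured genes were higher and 2.47% lower. The log2 ratio of Serpina3n was 0.92 (0.88 to 0.96), that of Plaur 1.11 (0.73 to 1.51), and both ratios stayed past 1.5-fold in 17 of 17 alternatives that give a ratio. The highest Plaur ratio among them, 2.30, was over all lineage-negative cells, which are not fibroblasts alone. At a minimum of 20 CPM Plaur was not measured. Plaur is a low transcript here, with 2.50 CPM in the library labelled Klf4-floxed, 5.86 CPM in Marfan and 2.71 CPM in control. Neutrophil marker sums in the fibroblast class were 21.1, 50.5 and 21.4 CPM in that order (7, 7 and 6 of 7 markers seen), and monocyte sums 140, 263 and 116 CPM (6, 7 and 5 of 7). Their part in the Plaur ratio was not tested. F3 had a log2 ratio of -0.58, which lay just inside 1.5-fold and was past it in 14 of 17 alternatives. Serpine2 had a ratio of 0.44 and Serpinf1 of -0.33.

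In the fibroblast-like and valve or chondrocyte-like clusters, Serpina3n for Marfan against control was past 1.5-fold higher in 5 of 5 (0.61 to 1.17), and F3 was below 0 in 5 of 5 (-0.83 to -0.49) and past 1.5-fold in 3. In the Hsd11b1 cluster Serpina3n had a log2 ratio of 1.13, in the Pi16 cluster 0.61 and in the Coch cluster 1.17. F3 had -0.49, -0.83 and -0.65 in the same clusters. Serpine2 was uneven, with 1.03 in the Hsd11b1 cluster, 0.85 in the Coch cluster and -0.26 in the Pi16 cluster. In the Hsd11b1 cluster Plau, low elsewhere in fibroblasts, had 11.5 CPM in the library labelled Klf4-floxed, 10.3 CPM in Marfan and 1.93 CPM in control. The log2 ratio of Marfan to control was 2.42.

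For the fibroblast libraries labelled Klf4-floxed against Marfan, 8 genes were measured, 0 were higher and 2 lower, while 1.77% of all measured genes were higher and 1.73% lower. Plaur had a log2 ratio of -1.23 (-1.59 to -0.88) and Thbd of -0.59 (-0.67 to -0.51). Thbd was past 1.5-fold in 4 of 17 alternatives. F3 had 0.37, which in clusters was 0.54 in the Hsd11b1 cluster and 0.92 in the Pi16 cluster. Serpina3n, within 1.5-fold in the whole class, was lower in the Hsd11b1 cluster (-1.09) and not in the Coch cluster (0.08). Against control, the fibroblast library labelled Klf4-floxed had 7 genes measured, with Serpine2 (0.63) and Serpina3n (0.94) higher and 0 lower, while 2.56% of all measured genes were higher and 2.76% lower.

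Valve interstitial-like or chondrocyte-like cells had 7 of the genes measured in each comparison. For Marfan against control, Serpina3n was higher by 1.13 (1.01 to 1.24) and F3 lower by -0.68 (-0.92 to -0.44), while 1.7% of all measured genes were higher and 2.85% lower. Serpina3n had 201 CPM in the library labelled Klf4-floxed, 205 CPM in Marfan and 94.2 CPM in control, and F3 24.1, 21.4 and 34.4 CPM. For Klf4-floxed-labelled against Marfan libraries 0 were higher and 0 lower, while 0.576% of all measured genes were higher and 1.18% lower. Against control, the library labelled Klf4-floxed had Serpina3n higher by 1.09 and 0 genes lower, while 1.66% of all measured genes were higher and 3.73% lower.

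Vascular endothelial-like cells had less Plat and less Thbd, and more Serpina3n, in the Marfan library than in control. Their class was the cluster led by Vwf, Sox17 and Klk8, with Dkk2 also among its leading genes. Types of endothelium within it were not separated, and their part in the ratios was not tested. Thbd had 343 CPM (315 to 372) in the library labelled Klf4-floxed, 225 CPM (203 to 248) in Marfan and 351 CPM (313 to 392) in control, so Marfan lay below both others. Serpina3n had 119 CPM (103 to 136), 150 CPM (133 to 169) and 36.1 CPM (24.7 to 50.9) in the same order, with control lowest. Of the 8 genes measured, Serpina3n was higher by 2.06 (1.52 to 2.63), and Plat (-1.28, interval -1.52 to -1.05), Serpine2 (-0.91, -1.43 to -0.39), F3 (-1.26, -3.31 to 0.71) and Thbd (-0.64, -0.86 to -0.42) were lower. Of all measured genes 11.1% were higher and 23.7% lower, and their median log2 ratio was -0.18, so the lower calls stand against a wide background. Of 13 alternatives that give a ratio, Serpina3n stayed past 1.5-fold in 13, Plat in 12 and Thbd in 6. Over all cells of the sorted library, of which this class was 2.79% in Marfan and 2.65% in control, Serpine2 had 0.41 and Thbd 0.20. That alternative mixes cell types and does not measure endothelium, though it is counted among the 13.

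For endothelial libraries labelled Klf4-floxed against Marfan, 7 genes were measured. Plat (0.68, interval 0.46 to 0.91) and Thbd (0.61, 0.42 to 0.80) were higher and Serpinf1 (-0.72, -1.11 to -0.33) lower, while 11.3% of all measured genes were higher and 8.23% lower. Thbd was past 1.5-fold in 2 of 14 alternatives. Over all cells of the sorted library, which again are mostly not endothelium, Thbd had -0.48 and Serpinf1 0.17. Against control, 8 were measured, with Serpina3n (1.72) higher and Plat (-0.60), Serpine2 (-0.96) and F3 (-0.71, from 7 and 6 UMIs) lower, while 9.27% of all measured genes were higher and 18% lower. The vascular endothelial class was small, with 209, 196 and 115 cells in Klf4-floxed-labelled, Marfan and control libraries, and SMC marker sums in it were 264, 1244 and 154 CPM (8, 10 and 8 of 10 markers seen). Fibroblast marker sums were 5561, 3770 and 5177 CPM (10 of 10 seen in each). The 5 fibroblast markers that gauge free RNA stood here at medians of 10.8%, 7.20% and 10.0% of their fibroblast level in Klf4-floxed-labelled, Marfan and control libraries (ranges 1.02% to 23.0%, 6.73% to 15.3% and 1.81% to 19.7%), above those in macrophages. Serpinf1 lay inside these ranges in all 3 libraries, at 5.89%, 9.06% and 5.63%, and F3 inside or below them, so neither ratio is read as a difference in endothelial expression. Serpine2 lay inside them in both Marfan-background libraries (11.9% and 14.0%) and above in control (35.8%), and Serpina3n above them in both Marfan-background libraries (27.2% and 35.0%) and inside in control (15.9%). Plat and Thbd were above their fibroblast level in every library. The part of free RNA and of the SMC markers in the endothelial ratios was not tested.

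In the macrophage or monocyte class all 9 genes were measured. F3, Serpina3n and Plat lay in this class at or near the free RNA share given above, and their ratios past 1.5-fold are listed because they enter the counts but are not read as a difference. For Marfan against control, Plaur (0.94) and Serpine2 (0.74) were higher and Tfpi (-0.60) lower, with 1.15 for Serpina3n and -1.26 for F3, while 4.04% of all measured genes were higher and 9.85% lower. Serpine2 had -0.35 without the cluster of lowest median UMIs, here the main macrophage-like cluster led by Folr2 and Mrc1. That cluster held 69.9% of the class cells in Marfan and 85.9% in control, so this value does not describe most macrophages. The Plaur ratio was -0.51 once the monocyte-like cells were left out, and monocyte marker sums in the macrophage or monocyte class were 236 CPM in the library labelled Klf4-floxed, 982 CPM in Marfan and 580 CPM in control (7 of 7 markers seen in each). For Klf4-floxed-labelled against Marfan libraries, Plau (0.73) and Serpinf1 (0.82) were higher and Plaur (-1.33) and Serpine2 (-1.09) lower, with 1.16 for Serpina3n and 1.45 for F3, while 5.39% of all measured genes were higher and 2.76% lower. In macrophage-like cells alone Plau had a log2 ratio of 0.56 and Plaur of 0.00. Plau had -0.32 without the main macrophage-like cluster, which held 86.1% of the class cells in the library labelled Klf4-floxed. Serpine2 had 0.035 over all cells of the sorted library, which mixes cell types, and F3 turned to -0.19 with cells thinned to 2000 UMIs. Fibroblast marker sums in this class were 1112, 616 and 692 CPM in Klf4-floxed-labelled, Marfan and control libraries (10 of 10 seen). The part of free RNA in the other ratios of this class was not tested. Against control, the library labelled Klf4-floxed had Serpinf1 (0.69) higher and Tfpi (-0.65) lower, with 0.61 for Plat and 2.31 for Serpina3n, while 3.72% of all measured genes were higher and 5.4% lower.

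In the whole lineage-negative fraction Plaur had 10.6 CPM in the library labelled Klf4-floxed, 50.8 CPM in Marfan and 10.3 CPM in control. Most of the Marfan excess lay in 3 clusters, of which the other lineage-negative libraries held few cells or, for the one led by Il11, none. Marfan UMIs of Plaur came to 36.8% from an unnamed cluster led by Il11, Cxcl5 and Csf3 (241 cells), to 27.5% from monocyte-like cells (363 cells) and to 13.6% from neutrophil-like cells. Without the neutrophil-like cells the Plaur levels were 10.6, 44.2 and 10.1 CPM in Klf4-floxed-labelled, Marfan and control libraries. Leaving out monocytes as well gave 9.59, 31.6 and 9.45 CPM, and leaving out the Il11 cluster also gave 9.59, 12.9 and 9.45 CPM. The log2 ratio of Marfan to control went down in these steps, 2.30 with all cells, then 2.13, 1.74 and 0.45. The Il11 cluster matched the fibroblast markers best, and 10 of them were detected in it. It was left unnamed because its 10 leading genes held 1 monocyte marker and no fibroblast marker. It had a median of 22131 UMIs per cell, and 241 CPM of Plaur, 449 CPM of Serpine2, 303 CPM of Serpina3n and 254 CPM of Thbd.

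**Figure D4:**
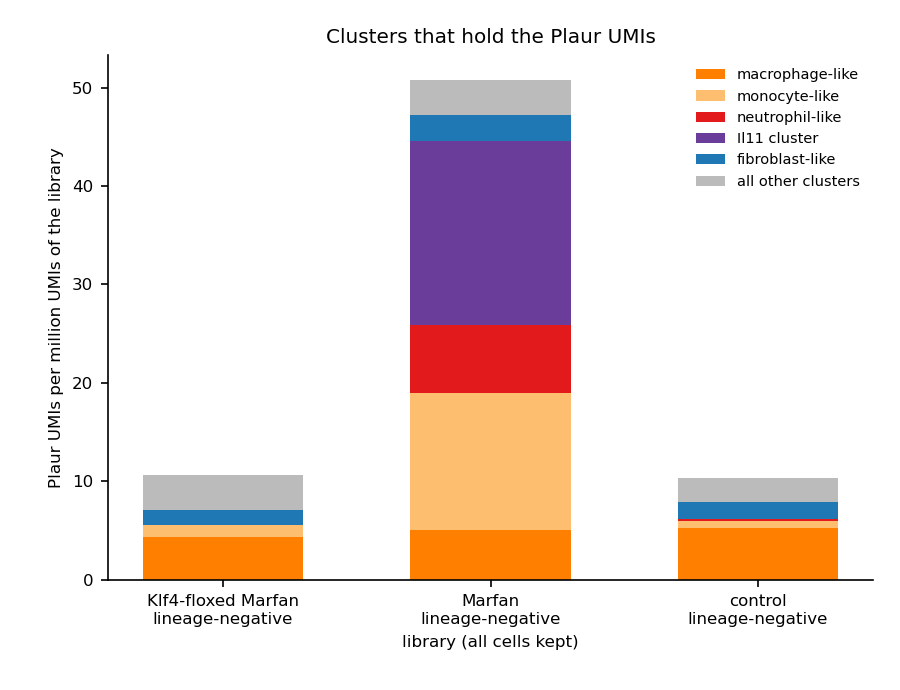
Plaur CPM of the whole lineage-negative library, stacked by source, for Klf4-floxed Marfan, Marfan and control from left to right. In the Marfan library the Il11 cluster gives 18.7, monocyte-like cells 14.0 and neutrophil-like cells 6.91 CPM, against 0, 1.16 and 0.0295 in Klf4-floxed Marfan and 0, 0.743 and 0.225 in control.

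Pericyte-like cells of the lineage-positive fraction carried a large share of the lineage-positive Serpina3n in both Marfan-background libraries. The leading genes of their cluster were Gja4, Rgs17 and Tnnt2, with Notch3 as the 1 pericyte marker among the top genes. Tnnt2, Psd and Bmp3 were leading genes both here and in an SMC-like cluster. Of the cluster's cells 84.5% were lineage-positive, so the name does not set them apart from SMCs. They had 42.9 CPM (37.9 to 48.5) in the library labelled Klf4-floxed, 175 CPM (163 to 188) in Marfan and 18.5 CPM (13.5 to 24.7) in control. Marfan was highest and the intervals were separate. These cells held 48.5% of the gene's UMIs with 9.47% of the cells in the library labelled Klf4-floxed, 54.6% with 4.70% in Marfan and 15.1% with 4.68% in control. Of 8 genes measured between Marfan and control, Plaur (3.28, interval 1.32 to 6.38, from 35 and 2 UMIs) and Serpina3n (3.25, 2.81 to 3.72) were higher and Serpinf1 (-0.80, -0.95 to -0.65) lower, while 7.39% of all measured genes were higher and 6.08% lower. For Klf4-floxed-labelled against Marfan libraries, 0 were higher, and Plaur (-2.02), Serpina3n (-2.03, -2.24 to -1.83) and Thbd (-1.03, -1.42 to -0.65) were lower, while 3.89% of all measured genes were higher and 4.41% lower. Against control, the library labelled Klf4-floxed had Serpina3n (1.22) higher and Thbd (-1.12) lower, while 6.88% of all measured genes were higher and 5.63% lower. Neutrophil marker sums in the pericyte class were 1.31 CPM, 98.2 CPM and 0 CPM in Klf4-floxed-labelled, Marfan and control libraries (3, 3 and 0 of 7 seen, with S100a9, Retnlg and Mmp9 at 0 in all), and pericyte sums 714, 700 and 860 CPM. The part of these in the Plaur ratio was not tested.

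Other genes of these pathways were taken from 5 lists. Of 10 listed genes of the plasminogen system, 6 were measured in SMCs for Marfan against control, with a median log2 ratio of 0.08, and Vldlr (-0.72) was lower. Of 14 other serpins, 7 were measured and Serpinb8 (0.59) was higher. In that comparison 3.53% of all measured genes were higher and 2.68% lower. Vldlr and Serpinb8 are named after their values were seen, because they were among the genes called in these lists. Of 8 natural anticoagulants 3 were measured and of 4 thrombin and protease-activated receptors 1 was measured, with 0 called, and of 14 coagulation factors and fibrinogen chains 0 reached 5 CPM in SMCs. For Klf4-floxed-labelled against Marfan SMC libraries, 0 genes of any of the 5 lists were called, while 0.325% of all measured genes were higher and 0.542% lower. Against control, F2r, the thrombin receptor, was higher in the library labelled Klf4-floxed, at 64.3 CPM against 41.1 CPM in control.

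In endothelial cells, Vwf, the gene of von Willebrand factor, had 297 CPM in the library labelled Klf4-floxed, 411 CPM in Marfan and 133 CPM in control. Of the other serpins, 10 of 14 were measured there for Marfan against control, with 5 higher and 2 lower, while 11.1% of all measured genes were higher and 23.7% lower. Serpinb1a, an inhibitor of neutrophil proteases, had 89.2 CPM in Marfan and 241 CPM in control, and Serpinb6b, whose near-identical copies make its counts uncertain, had 113 CPM in the library labelled Klf4-floxed, 204 CPM in Marfan and 31.6 CPM in control. Procr, the endothelial protein C receptor that presents protein C to the thrombomodulin complex, had 294, 329 and 377 CPM, all within 1.5-fold. In all fibroblasts Serpini1, a brain-rich inhibitor of tissue plasminogen activator, had 47.0 CPM in the library labelled Klf4-floxed, 32.5 CPM in Marfan and 10.3 CPM in control. In macrophages and monocytes, F13a1, the catalytic chain of factor XIII that cross-links fibrin, had 802 CPM in the library labelled Klf4-floxed, 561 CPM in Marfan and 1173 CPM in control. Serpinb2, a urokinase inhibitor of myeloid cells, had 0, 0.735 and 42.0 CPM in that order, and Serpinb1a 17.1, 12.8 and 48.4 CPM. F10, the gene of factor X, had 1.65, 1.87 and 21.5 CPM in macrophage-like cells. In these 3 genes control was highest.

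Across 33 profiles of class and library, which share libraries and depth, the genes most like each member were found by Pearson's r of log levels, as a description. F3 was closest to Smoc2 (Pearson r 0.916), Svep1 (0.903) and Abca6 (0.871), Serpinf1 to Cygb (0.948), and Serpina3n to Bok (0.910), Slc43a3 (0.870) and Igfbp3 (0.863). Thbd was closest to Abcg2 (0.957), Plaur to Hpcal1 (0.902) and Skap2 (0.889), and Plau to Cndp2 (0.871). Serpine2 had 1500009L16Rik (0.912), Plat Agrn (0.875) and Angptl2 (0.875), and Tfpi Sbds (0.906). The nearest genes were chosen from 10100, and no test was made of these values.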

How the data were processed

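The 6 libraries were made with the Chromium 3' version 3 chemistry, 1 per genotype and sort fraction, and titles gave the groups. The deposited values were raw UMI counts per gene and barcode, made by the authors with Cell Ranger, version 6.1.2 per the file headers, on build mm10 (per the submitters' processing notes). How barcodes were called and which annotation was used is not given in the sources used here.

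Cells were kept with at least 1000 UMIs, 500 genes and at most 10% mitochondrial UMIs. Doublets were scored with Scrublet in scanpy 1.11.5. Where its threshold marked under 0.5% of cells, in 4 libraries, cells with the highest scores were removed, 0.8% for each 1000 cells. Doublets removed were 322 (library labelled Klf4-floxed), 1171 (Marfan) and 236 (control) lineage-positive cells, and 70, 69 and 163 lineage-negative cells in that order. Clustering used 2000 variable genes without the genes listed here, 30 principal components, 15 neighbours and the Leiden method (leidenalg 0.10.2) at resolution 1, with no batch integration. A cluster was named X-like from fixed markers when at least 3 of them were in 10% of its cells and its top 10 genes held no more markers of another class. Between related classes, such as SMC and modulated SMC, the markers among the top 10 genes could decide the name. These conditions for names were chosen once the data had been seen. Clusters named SMC-like and modulated SMC-like made the SMC class, and classes other than SMC and pericyte were taken from the lineage-negative libraries.

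Counts were summed per class and library and given as CPM where it had at least 50 cells (Python 3.11.15, numpy 2.4.6, scipy 1.17.1, pandas 2.3.3, with figures by matplotlib 3.10.9). Intervals were exact at 95% and PCR or sampling of animals is not covered. Ratio, interval and call were checked on simulated data. The 9 genes, the 5 pathway lists and the alternatives were chosen with earlier results of these data known. The text names all 9 genes, up to 4 genes per list and comparison with at least 20 CPM and a log2 ratio of at least 1 in size, Procr, F2r and F13a1, and the 3 genes most like each member among those with at least 20 CPM in some profile. Alternatives were other UMI minima, mitochondrial limits, doublet handling, resolutions, gene choices, scalings, thinning to 2000 UMIs and minimum CPM. Klf4 and sequences of proteins were not analysed beyond what is stated. Some genes that this rule would name are not reported here.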

Additional observations from a re-analysis of the deposited data

Results flagged for a closer look

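In 6 pairs of values, a gene was at least 1.5-fold higher in a class of cells and at least 1.5-fold lower in another under the same comparison. With 1 library per group, the difference between the classes was not tested in any of them.

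In the library labelled Klf4-floxed, set against Marfan, Serpinf1 had a log2 ratio of 0.82 in the macrophage or monocyte class. The free RNA share there had a median of 5.02% in the library labelled Klf4-floxed and 2.76% in Marfan. Serpinf1 stood at 9.40% and 4.99% of its fibroblast level, above the marker range in both, and the part of free RNA in its ratio was not tested. The Serpinf1 ratio was -0.72 in the vascular endothelial class, where both levels lay within the range of the free RNA share. Serpina3n had 1.16 in the macrophage or monocyte class, where its level was near the free RNA share, and -3.07 in SMCs. Thbd, the gene of thrombomodulin, had 0.61 in the vascular endothelial class and -0.59 in the fibroblast class. Over all cells of the sorted library, which are mostly not endothelium, it had -0.48.

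Set against control, the library labelled Klf4-floxed gave Plat a ratio of 0.61 in the macrophage or monocyte class and -0.60 in the vascular endothelial class. The Plat levels in macrophages and monocytes were near the free RNA share, and their ratio is not read as a difference. In the same comparison Serpine2 had 0.63 in the fibroblast class and -0.96 in the vascular endothelial class. For Marfan against control, Serpine2 had 0.74 in the macrophage or monocyte class and -0.91 in the vascular endothelial class. Both signs changed in an alternative, to -0.35 in macrophages and monocytes without their main macrophage-like cluster and to 0.41 over all cells of the sorted library. The former leaves out most cells of the class, and the latter is mostly cells of other classes.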

How the results depend on the processing

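No paired analysis was possible because each group was 1 library and no label pairs libraries across groups. Alternatives were run for 9 comparisons, the 3 of SMCs and, in fibroblasts, endothelium and macrophages or monocytes, Marfan against control and Klf4-floxed-labelled against Marfan. The comparisons of valve cells and pericytes, and the others with control, had none. Of the 71 measured ratios in these 9 comparisons 29 were called, 18 of these had the same sign in every alternative that gives a ratio and 7 were past 1.5-fold the same way in every one. The share of all measured genes called differed widely by comparison. It was 0.325% higher and 0.542% lower in SMCs labelled Klf4-floxed against Marfan. In endothelium it was 11.1% higher and 23.7% lower for Marfan against control, so the pooled count has no common share to be read against. Numbers of members called changed as follows, and no share over all genes was taken for the alternatives. In SMCs, Marfan against control (3) gave 0 at a minimum of 20 CPM; Klf4-floxed-labelled against Marfan (1) gave 2 with cluster composition held and 0 at 20 CPM; Klf4-floxed-labelled against control (2) gave 1 at 5% mitochondrial UMIs, with fractions apart, thinned, over all cells of the sorted library or with composition held, 4 with no minimum and 0 at 20 CPM. In fibroblasts, Marfan against control (2) gave 4 at 500 UMIs, at 20% mitochondrial UMIs, with doublets kept, at resolution 0.5, with listed genes variable, without mitochondrial and ribosomal genes or over all cells, and 1 at 20 CPM; Klf4-floxed-labelled against Marfan (2) gave 1 at 4000 UMIs, at 5% mitochondrial UMIs, at resolution 2, as a mean over cells, with median-of-ratios scaling or at 20 CPM, and 0 without the cluster of lowest UMIs. In endothelium, Marfan against control (5) gave 3 at 5% mitochondrial UMIs, and Klf4-floxed-labelled against Marfan (3) gave 1 at 500 UMIs and 0 at resolution 0.5 or as a mean over cells. In macrophages and monocytes, Marfan against control (5) gave 3 with doublets kept, without the cluster of lowest UMIs or with composition held, and 2 at 20 CPM, and Klf4-floxed-labelled against Marfan (6) gave 2 over all cells. Called genes of the pathway lists (3) were 1 with composition held and 13 with no minimum. Ratios that changed sign were Plaur in SMCs against control (-0.38, library labelled Klf4-floxed, fractions apart); Serpine2 (0.41) and Thbd (0.20) in endothelium for Marfan against control, and Serpinf1 (0.17) and Thbd (-0.48) in endothelium and Serpine2 (0.035) in macrophages for Klf4-floxed-labelled against Marfan, all over every cell of the sorted library; Plaur in macrophages at 4000 UMIs and without monocytes (-0.53 and -0.51 for Marfan against control, 0.040 and 0.00072 for Klf4-floxed-labelled against Marfan); Serpine2 (-0.35, Marfan against control) and Plau (-0.32, Klf4-floxed-labelled against Marfan) in macrophages without the cluster of lowest UMIs; and F3 in macrophages (-0.19, Klf4-floxed-labelled against Marfan, thinned). The cause was not tested. The alternatives with cluster composition held and without monocytes were added after seeing the data. The cluster of lowest UMIs was the shallow cluster in SMCs, the Pi16 cluster in fibroblasts and the main macrophage-like cluster in macrophages and monocytes. The alternative over all cells replaces a class by every kept cell of its sorted library. Outside SMCs it therefore mixes cell types, and it is counted in the numbers above.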
